A study of Mus musculus with 18 samples.

Results

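Fatty acids that reach a muscle fiber are taken up through the plasma membrane, activated to acyl-CoA, carried into the mitochondrion as carnitine esters and shortened by 4 recurring reactions. The genes described here encode that route in mice given prednisone, a synthetic glucocorticoid. The set was chosen by name, from the textbook pathway but with earlier results of these data known, and holds 34 of the 43430 genes in the count table. It covers uptake (4 genes), activation (3), the carnitine shuttle with its control (7), the acyl-CoA dehydrogenases (4), hydration to thiolysis (6), handling of unsaturated bonds (4), electron transfer (3) and thioesterases (3). All 34 were matched by symbol, and all 34 passed the filter on low counts.

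RNA came from myofibers isolated from the quadriceps of C57BL/6 mice (substrain C57BL/6J in the study's methods), with 1 mouse per library and 18 libraries in 6 groups of 3. Males and females each received vehicle, weekly prednisone or daily prednisone for 4 weeks from 10 weeks of age, at 1 mg/kg by intraperitoneal injection. All mice were injected every day, and on the days without drug the weekly mice received the DMSO and PBS vehicle that the control mice received throughout. The last weekly dose was given 2 days before the muscle was taken. Myofibers were the fraction that a 40 µm strainer held back after collagenase digestion, so cells attached to fibers can be part of a library. In such bulk libraries, fewer cells of a type and less RNA per cell cannot be told apart.

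In skeletal muscle this pathway supplies much of the energy at rest and during prolonged work, and it is most active in oxidative fibers. Transfer of the acyl group to carnitine by carnitine palmitoyltransferase 1 is regarded as its controlled step, because malonyl-CoA inhibits that enzyme. Many of these genes are known targets of the nuclear receptors of the PPAR and ERR families. White and brown adipocytes also transcribe most of them.

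Libraries held between 10506661 and 14686654 counts, of which the 34 genes together took between 0.277% and 0.839%. Levels are given as CPM, read counts per 1000000 of the TMM-scaled library size. Differences are log2 fold changes from edgeR with their standard errors (SE), and a gene was called at a Benjamini-Hochberg adjusted p under 0.05 over 13596 tested genes. A panel of 10 myofiber markers that includes Ckm and Acta1 summed to between 108000 and 192000 CPM in every library. The female weekly libraries were the least alike. Female weekly library 2 had the largest share of counts from mitochondrially encoded genes (36.4%, against 11.7% to 32.6% in the others). Female weekly library 1 had 2450 CPM of slow-fiber markers, against at most 621 in the others, and female weekly library 3 had 429 CPM of brown adipocyte markers, against at most 67.1.

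In vehicle libraries of both sexes the order of levels per kb of exon began with Fabp3, the cytosolic fatty acid binding protein of heart and muscle. Its mean over the 6 libraries was 247 CPM per kb, with a range of 191 to 289. Cd36, the main fatty acid translocase of the membrane, followed at 139 (56 to 185) and Etfb, the beta subunit of the electron transfer flavoprotein, at 115 (105 to 133). The ranges of Fabp3 and Cd36 did not overlap, while those of Cd36 and Etfb did. A middle group ran from Crat (73.7 CPM per kb) to Slc25a20 (9.18) and held the 4 dehydrogenases, with Acadl at 71.6, Acadm at 40.9, Acadvl at 39.1 and Acads at 23.3. Both isoforms of carnitine palmitoyltransferase 1 stood low. On GENCODE M21 exon lengths, muscle-type Cpt1b was at 4.13 and liver-type Cpt1a at 3.42 CPM per kb, with overlapping ranges. For Cpt1a that length is 7642 bases, while the count table gives another span and only 4300 bases. The level of Cpt1a per kb may therefore be understated, and its order against Cpt1b is uncertain. Acot1, a cytosolic thioesterase, came last at 0.206 CPM per kb, from 51 counts in the 6 libraries together. Of the 33 pairs of neighbours in this order, 6 had ranges that did not overlap. The count table and GENCODE M21 give the same span for 23 of these genes. For the others the place in the order is less certain. Among them Slc27a1, Eci1 and Acot1 also have shorter lengths in the count table.

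**Figure D1:**
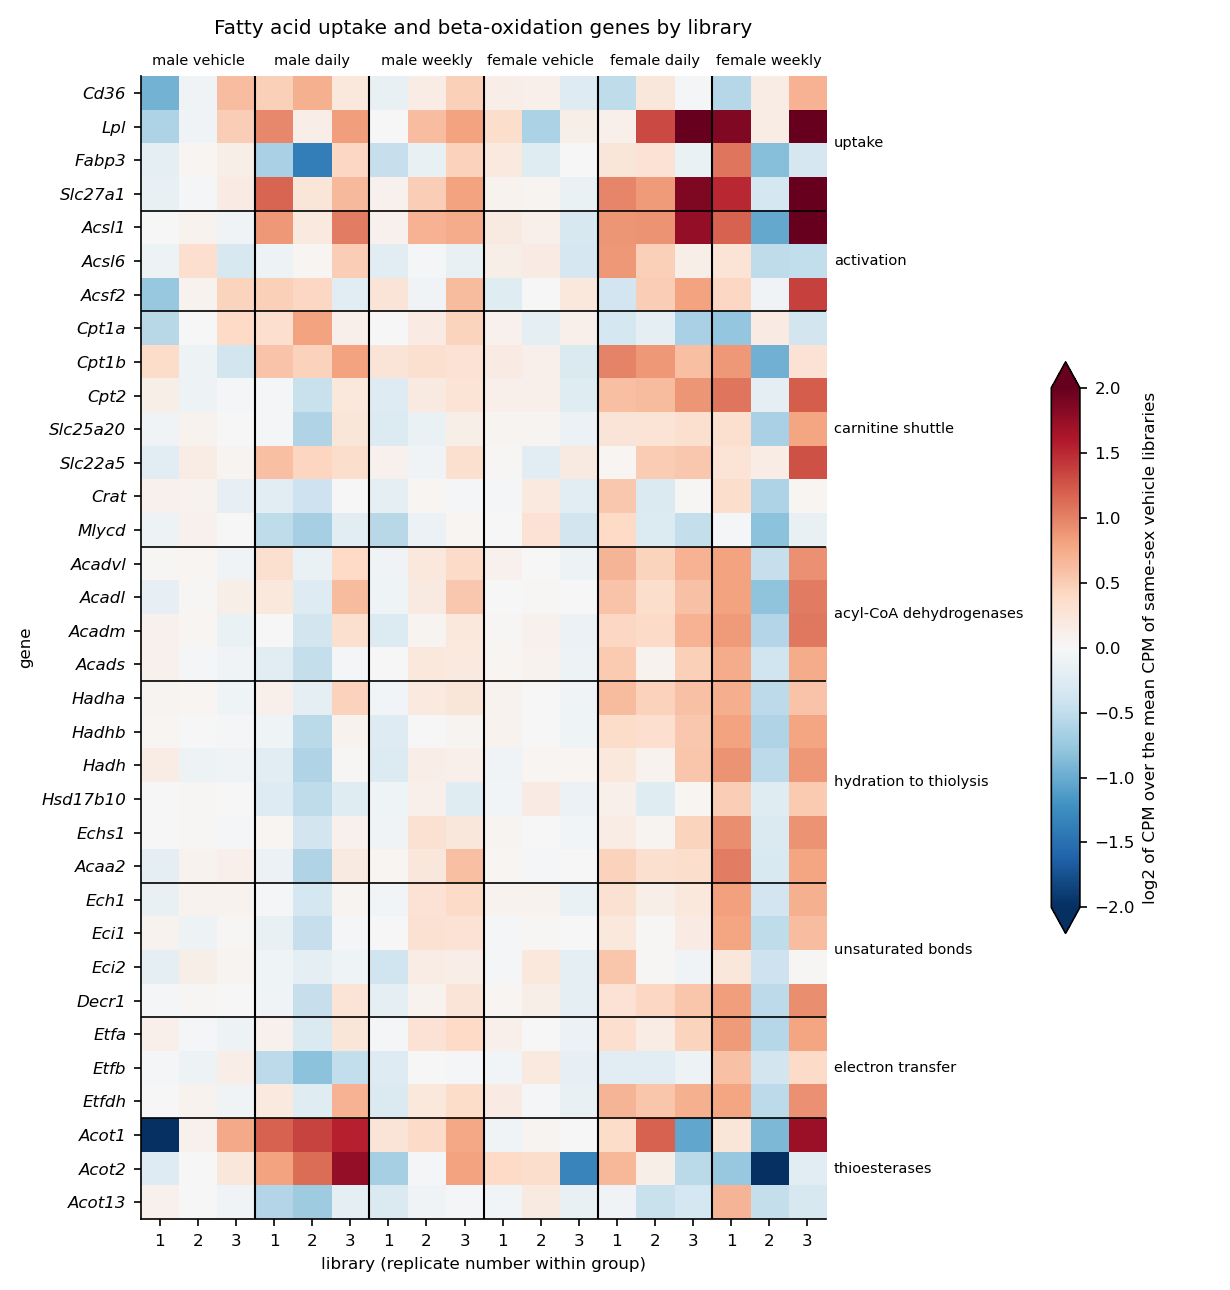
Level of each of the 34 genes (rows, grouped by role) in each of the 18 libraries (columns, grouped by sex and treatment), drawn as the log2 of its CPM over the mean CPM of the 3 vehicle libraries of the same sex; colors stop at -2 and 2. Female weekly libraries 1 and 3 are mostly red and female weekly library 2 mostly blue, while the 3 female daily libraries resemble each other.

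Daily prednisone in females gave the most even pattern across mice. Of the 34 genes, 28 had a higher mean than in vehicle females, and the median log2 fold change was 0.37, against 0.01 over all tested genes. For 17 genes all 3 daily libraries lay above all 3 vehicle libraries, as did 12.9% of all genes, and for 0 genes all 3 lay below. No gene passed the adjusted test (0 of 34, against 0.382% of all genes), and 8 had an unadjusted p under 0.05, all of them higher (9.65% of all genes). DESeq2 and limma-voom called 0 of the 34 as well, where they called 503 and 52 genes over the whole table. The highest values were those of Lpl (1.39 ± 0.54), Slc27a1 (1.31 ± 0.50), Acsl1 (1.24 ± 0.50), Cpt1b (0.83 ± 0.31) and Cpt2 (0.71 ± 0.27), with edgeR adjusted p between 0.176 and 0.217. Other measures separated the same groups. Mitochondrially encoded genes took 11.7% to 18.3% of counts in daily and 21.1% to 26.3% in vehicle females, and the 5 blood markers summed to 68 to 88.6 against 96.5 to 175 CPM. In the mean of both daily responses 4 of these 5 markers and 6 of 10 fast-fiber markers were called lower. Their part in the values of the 34 genes was not tested.

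In males given the same daily dosing, 17 genes were higher and 17 lower than in vehicle males, with a median of -0.02 (0.05 over all genes). None was called (0 of 34, against 6.46% of all genes), and 2 had an unadjusted p under 0.05 (22.8% of all genes), with Etfb lower and Acot2 higher. For 6 genes all 3 daily libraries lay above vehicle (16.4% of all genes) and for 4 all 3 lay below (17.1%). The 6 were Slc27a1, Acsl1, Cpt1b, Slc22a5, Acot1 and Acot2, and the 4 were Mlycd, Hsd17b10, Etfb and Acot13. The libraries were split, since male daily 2 lay below every vehicle male for 22 genes (median -0.32) and male daily 3 above every vehicle male for 21 (median 0.25). Without male daily 2, 23 genes were higher and the median was 0.14, and without male daily 3 the median was -0.11. The count of called genes over the whole table, 878 here, was 92 to 414 when 1 of the 6 libraries was left out, and the 52 of daily females became 0 to 126, with 0 of the 34 genes called in each of these fits.

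The mean of the male and the female daily response had a median SE of 0.18, against 0.26 in a single sex. It called 1 of the 34 genes, Cpt1b, where 15% of all tested genes were called. Another 9 had an unadjusted p under 0.05, which makes 10 in all (29.2% of all genes), of which 8 were higher and 2, Etfb and Acot13, lower.

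Weekly prednisone gave values in females that differed widely between mice. There 28 genes were higher than in vehicle, and the median was 0.47 (0.01 over all genes). Nevertheless 0 of the 34 were called, as for all genes (0%), and 9 had an unadjusted p under 0.05, all higher (5.67% of all genes). DESeq2 called 2, Lpl (1.76 ± 0.49, adjusted p = 0.0375) and Slc27a1 (1.68 ± 0.46, adjusted p = 0.035), where it called 149 genes over the whole table. With limma-voom 0 of the 34 were called, and 0 genes over the whole table. For 0 genes did all 3 weekly libraries lie above all 3 vehicle libraries (4.94% of all genes), since 1 mouse lay on the other side. Female weekly libraries 1 and 3 exceeded every vehicle female for 30 and 26 of the 34 genes, with a median log2 difference from the vehicle mean of 0.79 in each. Female weekly library 2 lay below every vehicle female for 28 genes, with a median of -0.50, and was the lowest of the 3 for 32 genes. Without library 2, edgeR called 16 genes, all higher (1.83% of all genes called), with a median of 0.76, and the residual spread then comes from 17 libraries. Among these 16 were all 4 acyl-CoA dehydrogenases (Acadvl 0.84 ± 0.15, Acadl 0.90 ± 0.20, Acadm 0.94 ± 0.18, Acads 0.72 ± 0.14), Slc27a1 (2.11 ± 0.34), Acsl1 (1.66 ± 0.31) and Cpt2 (1.12 ± 0.18), with adjusted p between 0.0091 and 0.0294. Cd36 (0.17 ± 0.40), Acsl6 (-0.08 ± 0.26), Crat (0.19 ± 0.21) and Eci2 (0.10 ± 0.19) were within 1 SE of 0 in that fit. Each library was left out in turn, but library 2 is set apart by its low values in these same genes. Leaving it out had to raise most of their fold changes, so the calls of that fit are no independent support for a rise. Without library 1 or library 3, 0 genes were called and the medians were 0.28 and 0.26. Slow-fiber markers moved in the same comparison, with 10 of 10 higher (8 at an unadjusted p under 0.05, 0 called) and a sum of 206 to 2450 CPM against 119 to 205 in vehicle females. The 2450 CPM was that of library 1, while libraries 2 and 3 had 238 and 206 CPM. With the slow-fiber score as a covariate, chosen after seeing the data, the median of the 34 genes was 0.21. Since these markers were themselves higher in weekly females, their share and that of prednisone cannot be told apart in this fit. The 9 tested macrophage markers were all higher as well (5 at an unadjusted p under 0.05, 0 called), and the list summed to 86.7 to 107 CPM against 37.1 to 70.5, but their part in the result was not tested.

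In weekly males 24 genes were higher than in vehicle, with a median of 0.14 (0.01 over all genes), and 0 of the 34 were called (0% of all genes). None had an unadjusted p under 0.05, against 5.71% of all genes, and DESeq2 and limma-voom called 0 (0 genes over the whole table in each). For 1 gene, Acsl1, all 3 weekly libraries lay above vehicle (7.76% of all genes). Male weekly 1 was the lowest of the 3 for 31 genes, and the median was 0.24 without it and 0.02 without male weekly 3. All 10 slow-fiber markers were higher here too (2 at an unadjusted p under 0.05, 0 called), with sums of 174 to 621 against 113 to 200 CPM. The 621 CPM was that of male weekly 3, while male weekly 1 and 2 had 232 and 174 CPM. With the slow-fiber score as a covariate the median became -0.06, with 14 of the 34 genes higher. The limit given for that fit in weekly females holds here too. Over both sexes the weekly response had a median of 0.30 with 0 genes called (0% of all genes) and 8 at an unadjusted p under 0.05, all higher (6.4% of all genes). Without female weekly library 2 this mean had 10 called genes, all higher (1.26% of all genes), with the limit given above for leaving that library out.

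**Figure D2:**
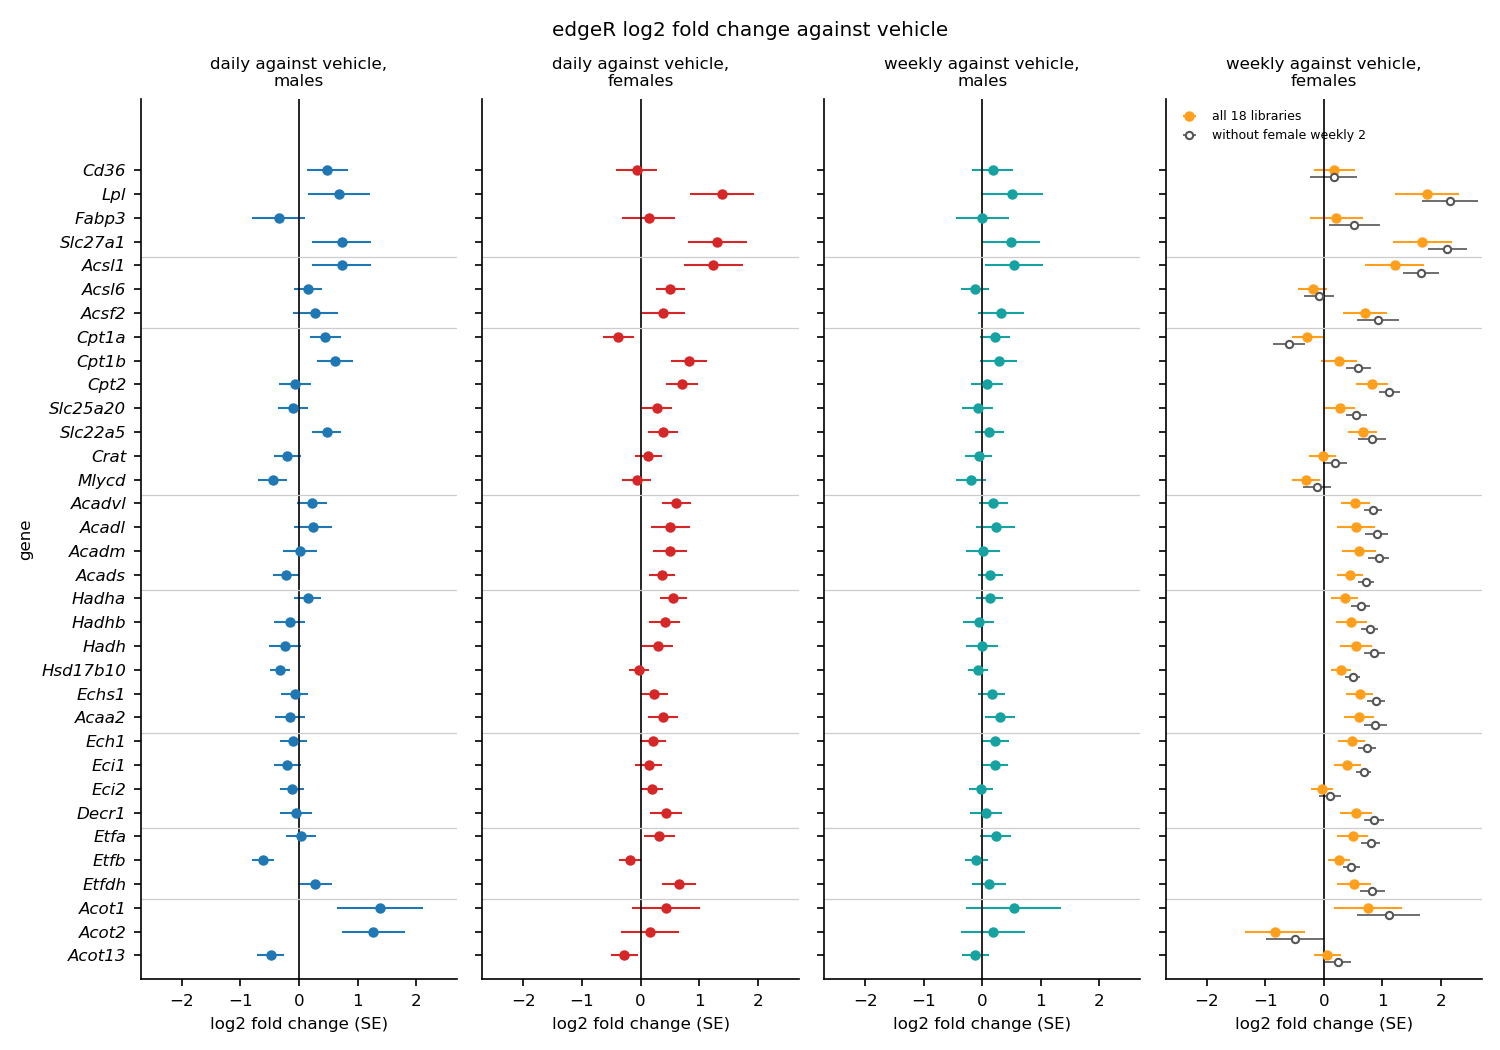
Log2 fold change against same-sex vehicle for each gene (rows) under daily and weekly prednisone in males and females, with bars of 1 SE on each side; open points in the last panel leave out female weekly library 2. Male values scatter around 0 and female daily values lie mostly to the right. Leaving out female weekly library 2, the lowest of its group for 32 genes, moves the weekly female median from 0.47 to 0.76.

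Among the uptake genes, Slc27a1 (fatty acid transport protein 1, chr8:71568927-71586708 in the count table, build mm10) had the smallest p values. In vehicle males it stood at 29.9, 32.4 and 37.3 CPM, in daily males at 74.4, 39.1 and 51.9, and in weekly males at 35.3, 46.7 and 58.1. Vehicle females had 56.5, 56.2 and 49.3 CPM, daily females 106, 97.8 and 198, and weekly females 154, 42.2 and 322. Every daily library was above its vehicle group in both sexes, and weekly female library 2 was below vehicle while weekly females 1 and 3 were above it. The log2 fold change was 1.31 ± 0.50 in daily and 1.68 ± 0.50 in weekly females, 0.73 ± 0.50 in daily and 0.49 ± 0.50 in weekly males, and 1.02 ± 0.35 in the mean of both daily responses (edgeR adjusted p = 0.0642). Lpl, the lipoprotein lipase that frees fatty acids from circulating triglyceride, ranged from 165 to 326 CPM in vehicle females, from 276 to 1090 in daily and from 283 to 1400 in weekly females, so its groups overlapped. Cd36 and Fabp3 had log2 fold changes between -0.35 and 0.48 in the 4 single-sex comparisons with vehicle, all within 1.5 SE of 0.

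Acsl1, the main long-chain acyl-CoA synthetase of muscle and fat (chr8:46471041-46536051), was higher than vehicle on average in all 4 treated groups. Its CPM were 146, 155 and 141 in vehicle males, 268, 168 and 299 in daily males, and 156, 238 and 247 in weekly males. They were 198, 187 and 140 in vehicle females, 324, 325 and 592 in daily females, and 398, 85.7 and 733 in weekly females. In both male groups and in daily females all treated libraries exceeded vehicle, whereas weekly female library 2 had the lowest value of all 18 libraries. Fold changes on the log2 scale were 0.73 ± 0.50 (daily males), 0.54 ± 0.50 (weekly males), 1.24 ± 0.50 (daily females) and 1.21 ± 0.50 (weekly females), and none passed adjustment (edgeR adjusted p between 0.217 and 0.866). Acsl6, a second long-chain synthetase, went from 13.5 CPM in vehicle females to 19.2 in daily and 11.7 in weekly females, and Acsf2, a medium-chain synthetase, had its highest group mean in weekly females (11.7 CPM).

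Cpt1b was the called gene of the set. It encodes the muscle isoform of carnitine palmitoyltransferase 1, on chr15:89416405-89425863. Vehicle males had 18.6, 13.4 and 11.2 CPM, daily males 21.3, 19.8 and 25.1, and weekly males 17.2, 18 and 17.6. Vehicle females had 14.9, 14.3 and 10.9 CPM, daily females 26.7, 24.3 and 20.2, and weekly females 24.5, 6.89 and 16.4. Each of the 6 daily libraries lay above each of the 3 vehicle libraries of its sex, and weekly libraries overlapped vehicle in both sexes. Cpt1b rose by 0.72 ± 0.22 on the log2 scale in the mean of both sexes (edgeR adjusted p = 0.0355, 95% interval 0.26 to 1.18), from 0.61 ± 0.31 in males and 0.83 ± 0.31 in females. The call was lost in 8 of the 12 fits that left out 1 library (adjusted p from 0.0588 to 0.0735) and held without male vehicle 1, male daily 2, female vehicle 1 or female daily 3. Without female daily 1 the gene called was Lpl (1.22 ± 0.35, adjusted p = 0.027). The log2 fold change of Cpt1b was 0.65 to 0.75 in the 8 fits that lost its call. The Cpt1b call was also lost, at a similar fold change, without a filter on low counts (0.75, adjusted p = 0.0513), with length and GC trends removed (0.76, adjusted p = 0.0652) and with the slow-fiber score as a covariate (0.63, adjusted p = 0.0701), and at a smaller one with the adipocyte score as a covariate (0.36, adjusted p = 0.652). In the count table the span of Cpt1b lies wholly inside that of Chkb, a choline kinase gene on the same strand (chr15:89416405-89429908), and how reads shared by both were counted is not given in the sources used here. Chkb had a log2 fold change of -0.05 ± 0.11 in the same comparison (adjusted p = 0.819).

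The rest of the carnitine shuttle did not move as one. Cpt2, which returns the acyl group to CoA at the inner membrane, had 38.5, 38.6 and 30.4 CPM in vehicle females, 54.4, 55.7 and 66.3 in daily females, and 75.1, 31.7 and 83.4 in weekly females. All 3 daily females exceeded vehicle, as did weekly females 1 and 3. In males the values were -0.07 ± 0.27 (daily) and 0.08 ± 0.27 (weekly). The difference between the female and male daily responses of Cpt2 was 0.78 ± 0.38, with an edgeR adjusted p of 0.889. Cpt1a differed the other way, with 0.45 ± 0.26 in daily males, -0.38 ± 0.26 in daily females and a sex difference of -0.83 ± 0.36 (unadjusted p = 0.0358, adjusted p = 0.889). Slc22a5, the carnitine importer, had 0.42 ± 0.18 in the mean of both daily responses (adjusted p = 0.118). Slc25a20, the carnitine-acylcarnitine carrier, Crat, the carnitine acetyltransferase, and Mlycd, which removes malonyl-CoA, had log2 fold changes from -0.45 to 0.28 in the 4 comparisons.

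The 4 acyl-CoA dehydrogenases open each turn of the cycle for very-long (Acadvl), long (Acadl), medium (Acadm) and short (Acads) chains. In daily females all 4 had all 3 libraries above vehicle, with log2 fold changes of 0.37 to 0.61, and in weekly females they ran from 0.45 to 0.60. In males the range was -0.22 to 0.24. Acadvl had 109, 111 and 103 CPM in vehicle males, 134, 98.5 and 142 in daily males and 102, 125 and 140 in weekly males. In females it had 109, 103 and 95.6 CPM under vehicle, 164, 140 and 166 under daily and 179, 74.3 and 194 under weekly prednisone. Daily females were separate from vehicle and males were not. Its log2 fold change was 0.61 ± 0.25 in daily females (edgeR adjusted p = 0.218) and 0.54 ± 0.25 in weekly females (adjusted p = 0.612). Of the exon bases of Acadvl, 42.9% are shared with Dvl2 on the opposite strand, and the strand setting of the counting is not given in the sources used here.

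Hydration, the second oxidation and thiolysis are carried out by Echs1, Hadh, Hsd17b10, Acaa2 and, for long chains, by the trifunctional protein of Hadha and Hadhb. In daily females 5 of these 6 were higher than vehicle (median 0.34) and in daily males 1 was (median -0.15). In weekly females all 6 were higher (0.30 to 0.61). Echs1, the short-chain enoyl-CoA hydratase (chr7:140105710-140116476), had 55.3, 56.5 and 54.9 CPM in vehicle males, 57.1, 43.1 and 59.0 in daily males, and 53.0, 68.4 and 64.8 in weekly males. Female values were 72.5, 70.3 and 67.1 under vehicle, 77.6, 72.5 and 95.2 under daily and 133, 57.5 and 130 under weekly prednisone. Vehicle libraries were close together in each sex, and weekly females 1 and 3 stood far above them. The weekly female log2 fold change was 0.61 ± 0.23 (edgeR adjusted p = 0.474), and it was 0.89 ± 0.15 (adjusted p = 0.0091) without weekly female library 2. That library had the lowest Echs1 value of its group, so leaving it out had to raise the estimate. Hadha had 0.56 ± 0.23 in daily females with all 3 libraries above vehicle (adjusted p = 0.221). Hsd17b10 had -0.33 ± 0.17 in daily males, with all 3 libraries below vehicle (adjusted p = 0.265).

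Enzymes for unsaturated bonds (Ech1, Eci1, Eci2 and the 2,4-dienoyl-CoA reductase Decr1) all had negative values in daily males, from -0.20 to -0.05, and positive values in daily females, from 0.14 to 0.43. None of these passed a test at an unadjusted p under 0.05. Ech1, which shifts double bonds in dienoyl-CoA, had 101, 117 and 117 CPM in vehicle males, 109, 87.3 and 116 in daily males and 107, 137 and 145 in weekly males. In females the values were 124, 124 and 108 (vehicle), 146, 129 and 137 (daily) and 209, 91.2 and 194 (weekly). Daily females lay just above vehicle, and weekly females lay on both sides of it. The weekly female log2 fold change of Ech1 was 0.48 ± 0.23 (edgeR adjusted p = 0.626).

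Electrons from the dehydrogenases pass through the electron transfer flavoprotein (Etfa, Etfb) to its oxidoreductase (Etfdh). The smallest p of the 3 was that of Etfb in daily males. Etfb had 128, 122 and 143 CPM in vehicle males, 90.9, 73.8 and 93.0 in daily males, and 109, 130 and 128 in weekly males. In females it had 131, 155 and 122 CPM under vehicle, 116, 117 and 127 under daily, and 205, 106 and 178 under weekly prednisone. All daily males lay below all vehicle and all weekly males, and daily females overlapped vehicle. The log2 fold change against vehicle was -0.61 ± 0.19 in daily males (edgeR adjusted p = 0.0617) and -0.39 ± 0.13 in the mean of both sexes (adjusted p = 0.0546), both just outside the threshold. DESeq2 (-0.62 ± 0.20, adjusted p = 0.0229 in males) and a fit of the 2 compared groups alone (-0.61 ± 0.13, adjusted p = 0.0193) called it. These fits called 1328 and 1530 genes over the whole table. A stricter filter on low counts and the slow-fiber score as a covariate also called Etfb in daily males. There limma-voom, DESeq2 size factors, no filter, the replicate block and the adipocyte or Schwann cell score did not call it. Neither did the 6 fits that left out 1 library. Etfdh had 103, 94.4 and 106 CPM in daily females against 72.1, 62.9 and 58.5 in vehicle females (0.65 ± 0.29, edgeR adjusted p = 0.263). Etfa had log2 fold changes from 0.03 to 0.49 in the 4 comparisons.

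Thioesterases release free fatty acid from acyl-CoA. Acot2, the mitochondrial member, had 5.79, 6.96 and 8.12 CPM in vehicle males, 12.1, 15.1 and 23.5 in daily males and 4.40, 6.82 and 12.2 in weekly males. In females it had 33.2, 32.1 and 10 CPM under vehicle, 39.7, 27.3 and 17.3 under daily, and 14.9, 5.36 and 21.5 under weekly prednisone. Daily males were all above vehicle males, vehicle females were all above vehicle males, and treated females overlapped vehicle. The log2 fold change was 1.27 ± 0.54 in daily males (edgeR adjusted p = 0.172) and 1.85 ± 0.54 for female against male vehicle (adjusted p = 0.173). Vehicle females against vehicle males passed with DESeq2 (1.83 ± 0.50, adjusted p = 0.0199). Acot1 is a close paralog next to Acot2 on chromosome 12, so reads may be split between them, and its group means were at most 2.08 CPM. Acot13 was lower in daily males (-0.48 ± 0.23, adjusted p = 0.229), with all 3 libraries below vehicle.

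**Figure D3:**
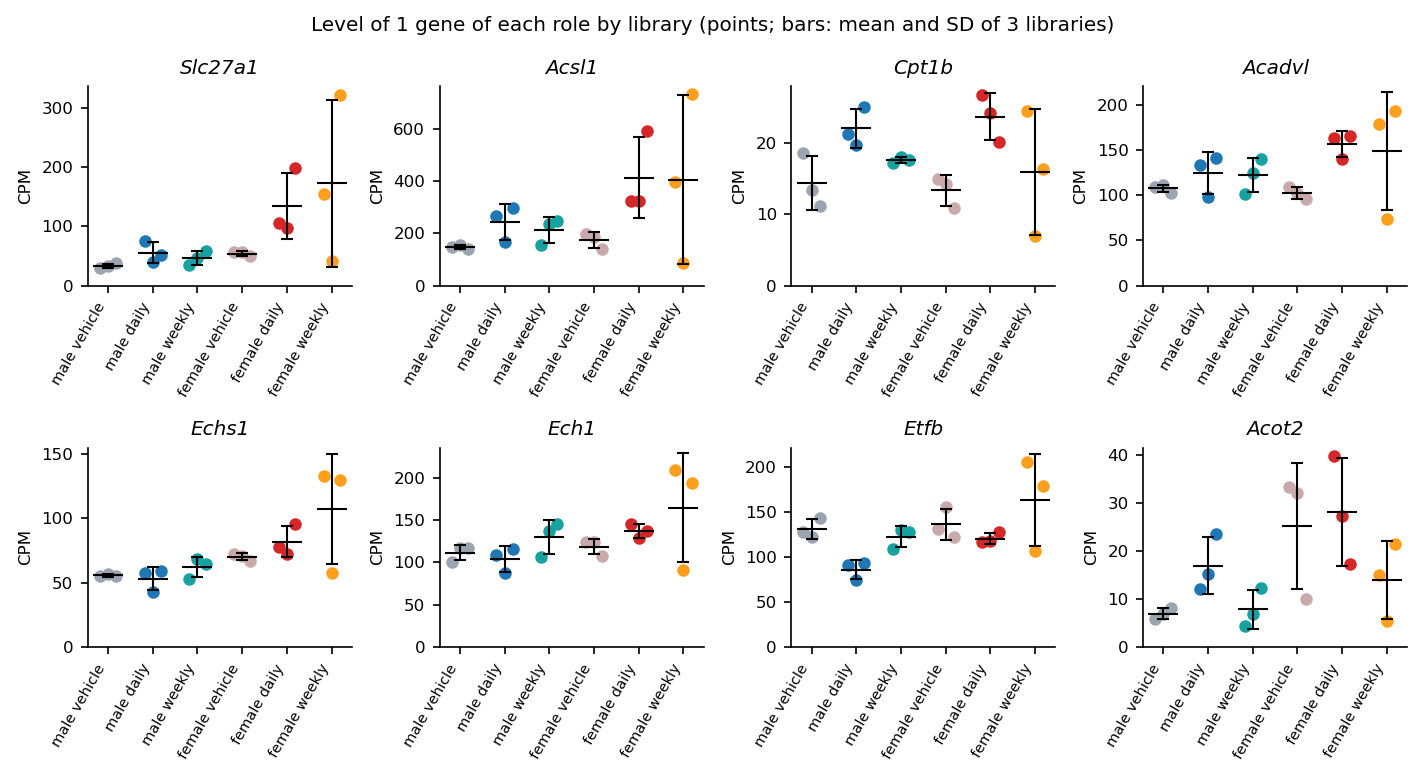
CPM of 1 gene of each role in every library (points, replicates 1 to 3 from left to right in each group), with the mean and SD of 3 libraries in black and axes from 0. Daily libraries of Cpt1b lie above vehicle in both sexes, daily males of Etfb lie below vehicle (73.8 to 93.0 against 122 to 143 CPM), and the weekly female bars are long because library 2 is low.

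The remaining comparisons asked whether the 2 schedules, or the sexes, differed. Daily against weekly prednisone had 0 of 34 genes called in males and 0 in females (0% of all genes in each), with 1 and 2 genes at an unadjusted p under 0.05 (13.5% and 17.7% of all genes). DESeq2 and limma-voom also called 0 of the 34 in both. Etfb was lower in daily than in weekly males (-0.51 ± 0.19, edgeR adjusted p = 0.253). In females Acsl6 was higher under daily prednisone (0.71 ± 0.24, adjusted p = 0.152). Same-numbered daily and weekly female libraries correlated in their deviations from group means (0.44 to 0.50). The labels state no pairing of mice, and the numbers in the column names of the count table differ within each of these pairs. Because of that correlation, a block by replicate number for daily and weekly females was added after seeing the data, in a fit of all 18 libraries. That fit called Acsl6 (0.72 ± 0.19, edgeR adjusted p = 0.0437), as 1 of 522 called genes. Without female weekly library 1 and with no block, Acsl6 also passed (1.01 ± 0.25, adjusted p = 0.0432). Of the 6 fits that left out 1 library in this comparison, 5 called 0 of the 34. These 6 fits called 0 to 312 genes over the whole table. The response in females minus that in males had a median of 0.36 for daily and 0.31 for weekly prednisone, with 0 genes called in either (0% of all genes in each) and 1 and 0 at an unadjusted p under 0.05 (4.69% and 2.63% of all genes), and DESeq2 and limma-voom called 0 too. The median SE of these differences was 0.37. Between vehicle females and vehicle males 0 were called (0.765% of all genes) and 3 were higher at an unadjusted p under 0.05 (4.71% of all genes), namely Acot2 (called by DESeq2, 1 of the 34), Acot1 (1.77 ± 0.74) and Acsf2 (0.92 ± 0.39). For 9 genes all vehicle females lay above all vehicle males (9.66% of all genes) and for 4 all lay below (9.22%).

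Adipocyte markers were higher in every treated group, including daily males, in which the median of the 34 genes was -0.02. The 10 markers summed to between 317 and 582 CPM in vehicle males, 663 and 1480 in daily males, and 679 and 1180 in weekly males. In females the sums were 662 to 746 (vehicle), 1120 to 3260 (daily) and 880 to 5530 (weekly), with 880 in weekly library 2, 3440 in library 1 and 5530 in library 3. All treated libraries thus exceeded all vehicle libraries of their sex, including weekly female library 2, in which the fatty acid genes were low. In 4 of the 6 groups the library with the lowest mean of the 34 genes also had the lowest adipocyte sum. In 0 groups it had the highest. Weekly females were among the 4, with means of 5.51, 6.62 and 6.74 log2 CPM in libraries 2, 1 and 3. Within daily males, library 3 had the lowest sum (663 CPM) and the highest mean log2 CPM of the 34 genes (6.15). Fabp4, the most abundant of the 10, had group means of 380 to 1440 CPM, and Lep was at 0 in 1 library. Of 6 brown adipocyte markers, whose sum was at most 1.57 CPM in vehicle mice and between 1.05 and 429 CPM in weekly females, Ucp1 was at 0 in 6 libraries. In the mean of both daily responses 9 of the 10 markers were called, all higher. With the mean log2 CPM of these markers as a covariate, the median of the 34 genes became -0.57 in daily males, -0.31 in daily females, -0.31 in weekly males and -0.24 in weekly females. In these comparisons 0 of the 34 were called, where 23, 0, 0 and 0 genes were called over the whole table. Since the marker level itself differed between vehicle and treated mice, its share and that of prednisone cannot be told apart in this fit.

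Markers of nerve and connective tissue also varied within groups. In 5 of the 6 groups the library with the lowest mean of the 34 genes had the highest sum of the 5 Schwann cell markers, in 4 of 6 the highest sum of the 7 fibroblast markers, in 4 of 6 the highest mitochondrially encoded share and in 3 of 6 the highest sum of the 7 endothelial markers. Vehicle males went the other way, as library 1 had the lowest mean of the 34 genes together with the lowest Schwann cell sum (103 CPM), fibroblast sum (1480 CPM) and mitochondrially encoded share (17%). Such libraries were male daily 2 (291 CPM of Schwann cell markers), male weekly 1 (334), female vehicle 3 (287), female daily 2 (259) and female weekly 2 (340). The group sums ran from 103 to 198 CPM in vehicle males, 122 to 291 in daily males, 190 to 334 in weekly males, 153 to 287 in vehicle females, 136 to 259 in daily females and 188 to 340 in weekly females. With the Schwann cell score as a covariate, chosen after seeing these values, 6 of the 34 genes were called in the mean of both daily responses, where 20.8% of all genes were called, so the share of the 34 did not exceed the background. These were Acsl1 (1.07 ± 0.34), Cpt1b (0.83 ± 0.18), Acadvl (0.48 ± 0.14), Hadha (0.42 ± 0.12), Etfdh (0.52 ± 0.16), all higher, and Etfb (-0.35 ± 0.11), lower. Since the score was chosen for its link to low values of these same genes, the calls are no independent support for a change. Schwann cell markers also differed between groups, with 5 of 5 higher in weekly than in vehicle males. Their share and that of prednisone cannot be told apart in this fit. The medians in that fit were 0.17 in daily males, 0.28 in daily females, 0.45 in weekly males and 0.49 in weekly females, and 0 of the 34 were called in each (6.52%, 4.13%, 0% and 0% of all genes). The part of these cell types in the differences was not tested otherwise.

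**Figure D4:**
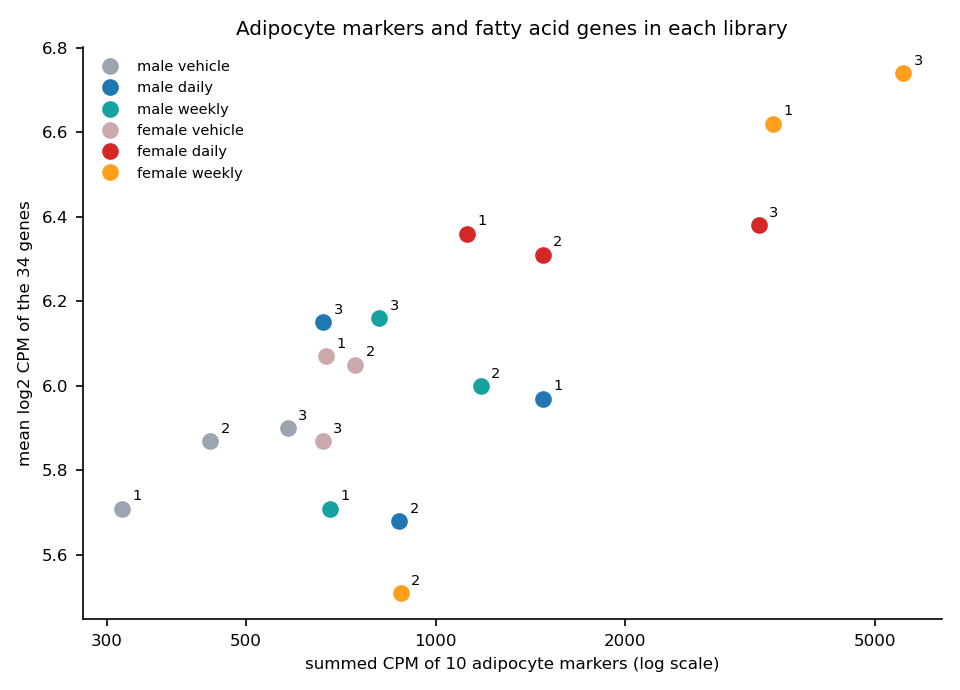
Mean log2 CPM of the 34 genes (vertical axis) against the summed CPM of 10 adipocyte markers (horizontal log axis) in each of the 18 libraries, colored by group and numbered by replicate. Female weekly libraries 1 and 3 (3440 and 5530 CPM) are at the upper right, while female weekly library 2 (880 CPM) has the lowest mean of the 34 genes, 5.51.

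Genes next to this pathway were read from a list of 46, of which 45 were matched and 44 tested. It covers further acyl-CoA synthetases and dehydrogenases, malonyl-CoA synthesis, ketone and propionate handling, further thioesterases, peroxisomal oxidation, carnitine synthesis and the PPAR regulators. In the mean of both daily responses 7 were called higher and 1 lower, in the same comparison where 15% of all genes were called. Acaca, an acetyl-CoA carboxylase that makes malonyl-CoA, rose by 2.12 ± 0.55 on the log2 scale (edgeR adjusted p = 0.0203). Acacb, the other acetyl-CoA carboxylase gene of the list, was not called (0.28 ± 0.16, edgeR adjusted p = 0.276). Its vehicle means were 263 CPM in males and 258 in females, against 12 and 14.6 for Acaca. Angptl4, an inhibitor of lipoprotein lipase, rose by 1.75 ± 0.48 (adjusted p = 0.0241). The transcriptional coactivator gene Ppargc1b (1.11 ± 0.33) and the nuclear receptor gene Pparg (0.96 ± 0.30), which is also one of the adipocyte markers, rose with adjusted p of 0.0343 and 0.0413. Peroxisomal Abcd2 (0.70 ± 0.21) and Hsd17b4 (0.46 ± 0.14) and the carnitine synthesis gene Aldh9a1 (0.79 ± 0.23) were the other rises, and Mcee of propionate breakdown fell (-0.50 ± 0.15), with adjusted p between 0.0296 and 0.0385. In each single-sex comparison with vehicle, daily or weekly, edgeR called 0 of the 44 (6.46% of all genes in daily males, 0.382% in daily females and 0% in both weekly comparisons). At an unadjusted p under 0.05 there were 17 in daily females (9.65% of all genes higher) and 12 in weekly females (5.67%), all higher. There were 6 in daily males and 0 in weekly males, where 22.8% and 5.71% of all genes passed in either direction.

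Promoter sequence was examined for 2 kinds of letters, because the PPAR and ERR receptors and the glucocorticoid receptor bind DNA. RefSeq promoters of build GRCm38.p6 (250 bases before to 50 after a start site) were available for 28 of the 34 genes. AGGTCA, the half-site of PPAR and ERR receptors, was present on either strand in 6 of the 28 (Acadm, Acadvl, Acsl6, Cd36, Cpt1a and Echs1), against 18.1% of 27025 genes. A pair of AGGTCA half-sites in the same direction with 1 base between them was found in 0 of the 28 and in 0.0481% of genes. The glucocorticoid receptor letters ACANNNTGT were found in 3 (Acot1, Acsl6 and Hadh), against 7.90% of genes. A match of letters does not show a bound site. The stretches upstream of Acadvl (chr11:70015429-70015528, minus strand) and Echs1 (chr7:140116477-140116521, minus strand, stopping before annotated exon) are shown because both genes had values in every library above, with AGGTCA in capitals starting at -87 and -83 from the start site.
Acadvl: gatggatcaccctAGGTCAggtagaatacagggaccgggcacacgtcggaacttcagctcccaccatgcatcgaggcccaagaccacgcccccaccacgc
Echs1: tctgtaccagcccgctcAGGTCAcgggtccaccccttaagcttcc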

How the data were processed

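RNA-seq of 18 libraries was analysed from the authors' deposited table of whole-number read counts per gene, which carries no normalization. According to the submitters' processing notes, TopHat2 2.1.0, Bowtie2 2.2.6 and HTSeq were used, and both mm10 and mm9 are named. The coordinates of 33497 of 43430 identifiers equal those of GENCODE M21 (mm10). The annotation release and strand setting are not given in the sources used here, so overlapping and paralogous genes are uncertain. A symbol was matched for 42462 identifiers.

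The main test was the quasi-likelihood test of edgeR 4.0.16 (R 4.3.3), with robust estimation, TMM scaling, the filterByExpr filter at a minimum count of 10, and 1 mean for each of 6 groups, which leaves 12 residual degrees of freedom. The biological coefficient of variation was 0.224. There were 11 contrasts, and p values were adjusted over 13596 genes. Each SE is the size of the log2 fold change divided by the root of F, and intervals are at 95%. All tests are two-sided. Log2 CPM used a prior count of 2. Exon length per gene is the merged GENCODE M21 length, since the Length column of the table mostly sums exons over transcripts. Spans are the same in both for 23 of the fatty acid genes. For the others the exon length may differ from that of the annotation used in counting. The steps were tested on simulated data.

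Alternatives were DESeq2 1.42.0, limma-voom 3.58.1, DESeq2 size factors, no filter, a minimum count of 50, the compared groups alone, a replicate block, an adipocyte-score covariate, length and GC trends removed (splines of 5 degrees of freedom), mitochondrially encoded genes left out, and each library left out. A block restricted to daily and weekly females and covariates of slow-fiber and Schwann cell scores were added after seeing the data. Replicate numbers come from the sample titles, and the labels state no pairing of mice across groups. Same-numbered libraries correlated in their deviations from group means in all pairs for daily and weekly females (0.50, 0.48 and 0.44) and not for the other comparisons, where 1 or more of 3 was at or under 0.1. No 2 libraries agreed within sampling noise.

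The genes and lists were chosen with earlier results of these data known. Values in every library are given for 1 gene per role, taken as the called gene or, in a role without one, the gene with the smallest p in the 4 single-sex comparisons with vehicle. The female values of Cpt2 and Etfdh were added after they were seen. Neighbouring genes are named where called, except that Acacb was added beside Acaca.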

Additional observations from a re-analysis of the deposited data

How the results depend on the processing

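Counts of called genes among the 34 depended on the fit. In the mean of both daily responses, where the reported count is 1, the count was 5 with DESeq2, 3 with a stricter filter on low counts, 10 with the compared groups alone, 6 with the Schwann cell score and 2 with the slow-fiber score as covariates. It was 0 without a filter, with the adipocyte score as a covariate and with length and GC trends removed. In daily males, where the reported count is 0, it was 1 with DESeq2, 1 with the stricter filter, 3 with the compared groups alone and 1 with the slow-fiber score. The count was 2 with DESeq2 in weekly females, and 1 with DESeq2 or the compared groups alone for vehicle females against males. It was 1 with the Schwann cell score in daily against weekly males. Leaving out each library in turn gave 0 to 1 called genes in the mean of both daily responses (0 in 7 of 12 fits), 0 to 16 in weekly females, 0 to 10 in the weekly mean, 0 to 1 in daily against weekly females and 0 in the other 7 comparisons. The cause of these changes was not tested. Over all tested genes the daily mean had 2033 calls, against 2267 with DESeq2, 2196 with the stricter filter, 2386 with the compared groups alone, 2829 with the Schwann cell score, 1802 with the slow-fiber score, 1632 without a filter, 785 with length and GC trends removed and 0 with the adipocyte score. The daily female count was 52, against 503 with DESeq2, 198 with the stricter filter, 562 with the Schwann cell score, 29 without a filter, 5 with the slow-fiber score, 2 without mitochondrially encoded genes and 0 with the compared groups alone, the block, the adipocyte score or length and GC trends removed. Daily males had 878, against 1328 with DESeq2, 1530 with the compared groups alone, 68 with length and GC trends removed and 23 with the adipocyte score. Comparisons with a count of 0 had 149 (weekly females), 180 (weekly mean), 197 and 540 (daily against weekly, males and females) with DESeq2. Vehicle females against males had 104, against 225 with DESeq2 and 53 with the block.

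The replicate block within sex (8 residual degrees of freedom) kept Cpt1b as the called gene (0.73, adjusted p = 0.0359) and changed no other call among the 34. Restricted to daily and weekly females, the replicate block gave 1 called gene, Acsl6.

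With 3 mice a group the median SE of a single-sex log2 fold change was 0.26, so changes of the size seen for most of these genes could not be told from 0. Genes with few counts, such as Acot1, are imprecise further.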
